A study of Mus musculus with 7 samples.

Results

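The genes described here are 10 members of the transforming growth factor β (TGF-β) pathway, chosen by name as its ligands, receptors and SMADs, out of 38026 genes measured in whole tumors. They are the ligands *Tgfb1*, *Tgfb2* and *Tgfb3*, the activin subunit *Inhba*, the latency protein *Ltbp1*, the receptors *Tgfbr1*, *Tgfbr2* and *Tgfbr3*, and the signal mediators *Smad3* and *Smad7*. The rule goes by gene name and uses no measured value. RNA-seq was performed on 7 subcutaneous (s/c) tumors taken from the right flank of untreated C57BL/6 mice 2 weeks after inoculation of cancer cells. All the tumors grew from PDA (pancreatic ductal adenocarcinoma) line 1242, which came from a tumor of a KPC mouse whose alleles included LSL-Trp53 R172H and Pdx1-Cre, so that mutant alleles were switched on in Pdx1-expressing pancreatic cells. The cells had been given Cas9 and a guide RNA by lentivirus, with a scrambled guide in 4 tumors (sgScramble, libraries 1 to 4) and a guide against *Krt19* in 3 tumors (sgKRT19, libraries 5, 6 and 8). *Krt19* encodes a keratin of epithelial cells, which the study followed because it forms a surface coat on the cancer cells together with CXCL12, a chemokine. The study made polyclonal lines and single-cell clones and names more than 1 *Krt19* guide, and the sources used here do not say which line or which guide gave the sequenced tumors. Per the methods of the study, mice were bought at an age of 6 weeks and kept for 2 weeks before an experiment. If each sgKRT19 tumor came from 1 clone, a difference between clones and the effect of the edit cannot be told apart.

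TGF-β ligands are secreted in a latent form, held by their own propeptide and by latent TGF-β binding proteins, and are set free in the matrix, in part by integrins. The active ligand joins a type II and a type I receptor kinase, which phosphorylate SMAD2 and SMAD3, and these enter the nucleus with SMAD4, while SMAD7 is an inhibitory SMAD induced by the pathway. In pancreatic cancer the pathway is known for its part in fibroblast activation, in epithelial-mesenchymal change of cancer cells and in the restraint of T cells. The comparison of sgKRT19 with sgScramble tumors shows whether the RNA of these genes differed between the groups. In bulk tumor RNA, fewer cells of a type and less RNA per cell cannot be told apart.

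All values below are normalized read counts, in which the reads of a gene are divided by a size factor for its library. The figure after each ± is the SD within a group. Each library held 40781199 to 44972100 reads. *Krt19* was at 17841 to 27618 in sgScramble and at 1606 to 2470 in sgKRT19 tumors, so that it fell by 3.52 on the log2 scale (adjusted p = 1.74e-05, limma). Some summed cell type markers also moved with the groups. Markers of carcinoma epithelium (5 genes) ranged from 119276 to 156746 in sgScramble and from 246203 to 259981 in sgKRT19 tumors. Those of endothelium (6 genes) ranged from 2872 to 3956 and from 4568 to 5628. In the epithelial sum *Krt8* and *Krt18* were the largest, and *Epcam* gave no detectable difference (log2 fold change 0.06). Leukocyte markers (7 genes) overlapped, at 5873 to 8511 and 8045 to 11221. Of these *Ptprc* (log2 fold change 1.19), *Cd3e* (2.63) and *Cd8a* (3.11) rose, while *Cd68*, *Adgre1*, *Itgam* and *Csf1r* gave no detectable difference. Skeletal muscle markers (7 genes) ranged from 85.5 to 2112 in sgScramble, with the high value in library 3 alone, and from 16176 to 24807 in sgKRT19 tumors. The sum of the 8 fibroblast markers overlapped, at 15258 to 31025 and 15210 to 18306, with sgScramble libraries 3 and 4 the highest. By its means this sum was 0.72 times as high in sgKRT19 tumors. Of these markers *Col6a1*, the largest in the sum, fell without overlap (log2 fold change −0.96, adjusted p = 0.0236, limma). The other fibroblast markers gave no detectable difference. The sum of the regulatory T cell markers (4 genes) was 1010.6 to 1269 in sgScramble and 904 to 1010.4 in sgKRT19 tumors, lower in each sgKRT19 tumor by a narrow margin. Its genes went different ways. *Ctla4* (log2 fold change 1.69) and *Il2ra* (1.04) rose, *Ikzf2* fell (−1.27) and *Foxp3* gave no detectable difference (−0.07). *Foxp3* and *Ikzf2* were the largest in that sum. *Foxp3* was at 522 ± 14.8 in sgScramble and 498 ± 46.2 in sgKRT19 tumors, where the T cell gene *Cd3e* was at 65.2 ± 27.9 and 395 ± 127. Which cells gave these reads was not tested. The sums of platelet (5 genes), keratinocyte (3 genes) and adipocyte (4 genes) markers overlapped between the groups. Of the muscle markers *Ckm*, *Myh4* and *Actn2* were at 0 in 1 or more sgScramble libraries, and *Krt5* (keratinocyte), *Gp9* (platelet) and *Lep* (adipocyte) were at 0 in some tumors. The part of these cell types in the results below was not tested.

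All 10 genes are protein-coding, and each was matched by identifier to GENCODE release M21 on GRCm38. RefSeq promoter windows of GRCm38.p6, with 250 bases before and 50 bases after a start site, were searched for 7 of the 10 genes. These genes had 9 windows. *Tgfb3* and *Tgfbr3* had no entry. No window of *Smad7* was searched, and whether it has an entry is not given here. The windows below are shown because *Inhba* and *Smad3* fell in sgKRT19 tumors and *Tgfb1* gave no detectable difference. Capitals mark letters that match, on either strand, the motif GGGCGG known as a GC-rich box or the motif TATAAA known as a TATA box. They are the *Tgfb1* window (chr7:25686752-25687051, plus strand), the *Inhba* window (chr13:16011601-16011900, plus strand) and the *Smad3* window (chr9:63757945-63758244, minus strand).
Tgfb1: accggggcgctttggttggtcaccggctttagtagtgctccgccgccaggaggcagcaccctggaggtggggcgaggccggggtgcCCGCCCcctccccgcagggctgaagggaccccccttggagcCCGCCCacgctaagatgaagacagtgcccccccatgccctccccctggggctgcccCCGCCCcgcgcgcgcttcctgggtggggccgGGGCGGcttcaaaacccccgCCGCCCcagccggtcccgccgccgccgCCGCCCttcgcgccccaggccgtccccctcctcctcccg
Inhba: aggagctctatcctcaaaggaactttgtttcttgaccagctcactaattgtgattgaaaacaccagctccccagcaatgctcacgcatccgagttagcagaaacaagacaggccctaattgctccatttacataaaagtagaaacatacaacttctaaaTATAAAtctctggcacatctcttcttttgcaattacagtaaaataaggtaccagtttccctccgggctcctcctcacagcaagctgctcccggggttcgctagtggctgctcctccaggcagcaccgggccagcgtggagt
Smad3: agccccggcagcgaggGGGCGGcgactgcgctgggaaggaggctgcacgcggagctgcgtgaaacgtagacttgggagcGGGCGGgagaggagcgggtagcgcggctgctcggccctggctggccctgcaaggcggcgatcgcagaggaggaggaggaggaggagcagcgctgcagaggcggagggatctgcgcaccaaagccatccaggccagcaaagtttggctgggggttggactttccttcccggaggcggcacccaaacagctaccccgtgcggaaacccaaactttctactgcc
The windows differ in composition, with a GC content of 77.0% for *Tgfb1*, 67.7% for *Smad3* and 47.7% for *Inhba*. GGGCGG was found 6 times in the *Tgfb1* window and 2 times in the *Smad3* window, and 35.7% of all 32851 windows hold it. TATAAA was found once in the *Inhba* window, with its first base 91 bases before the start, and 13.6% of all windows hold it. None of these 3 windows matched CAGAC (the short SMAD-binding element, in 49.6% of all windows), its palindrome GTCTAGAC (0.213%), TGANTCA (an AP-1 site, 7.81%) or TGACGTCA (a cyclic AMP response element, 1.79%). Of the searched motifs, none overlaps another in these windows. Such matches describe letters and not bound sites, and no binding was measured here.

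Of the 10 genes, 3 fell in sgKRT19 tumors and none rose. The genes that fell were *Inhba*, *Smad3* and *Smad7*. Across the whole table limma called 7240 of the 21322 genes tested, or 34.0%, and called 16.0% lower in sgKRT19 tumors, so 3 of 10 called lower stands beside a background of 16.0% in that direction and 3 of 10 called either way beside 34.0%. The log2 fold change was below 0 for 8 of the 10 genes, with a median of −0.32 where the median of all genes tested was 0.01. No overlap between the groups was seen for 3 genes, *Tgfb3*, *Smad3* and *Smad7*, each with every sgKRT19 library below every sgScramble library. Among all genes tested 41.1% did not overlap and 19.3% did so with sgKRT19 lower. Scaled by library size only, which moved the median of all genes to −0.21, all 10 genes had a log2 fold change below 0 and 5 were called lower. In that setting 5727 of the 21306 genes tested were called lower. The share of calls over the whole table that were higher in sgKRT19 tumors went from 52.8% to 27.5%. Every change is therefore relative to the authors' size factors. Leaving out sgScramble library 2 left 0 of the 10 called by limma, with 4 at an unadjusted p under 0.05, while leaving out sgScramble library 1 gave 4 calls and leaving out the muscle-rich sgScramble library 3 gave 3. Over the whole table these fits called 4861 of 21079, 7714 of 21164 and 6675 of 21058 genes tested, in the same order.

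**Figure D1:**
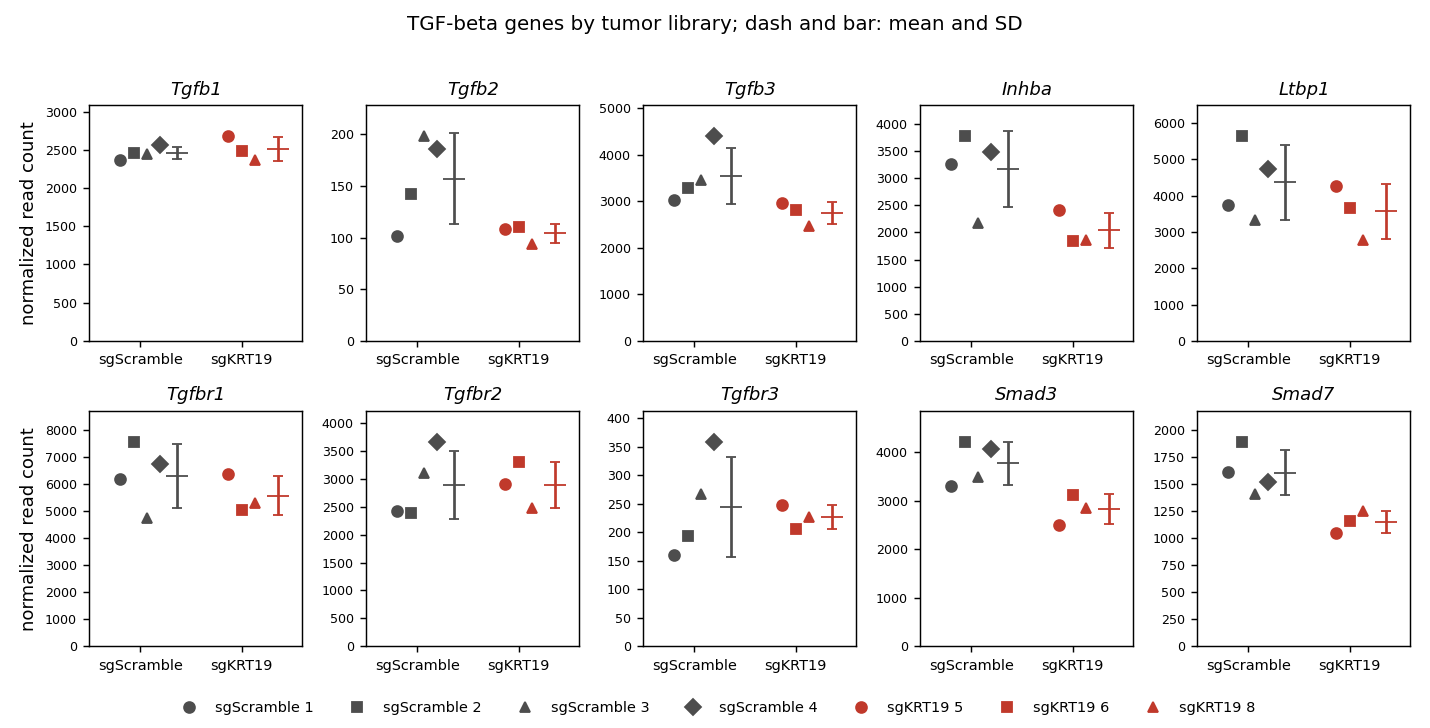
Normalized read count (vertical axis, from 0) of each of the 10 TGF-β genes in the 4 sgScramble and 3 sgKRT19 libraries, 1 symbol per library, with the group mean as a dash and the SD as a bar. The *Smad3*, *Smad7* and *Tgfb3* points of sgKRT19 lie below all sgScramble points, the *Inhba* point of sgScramble library 3 lies among those of sgKRT19, and the *Tgfb1* points of both groups lie between 2368 and 2678.

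The TGF-β ligands were examined first. *Tgfb1* (ENSMUSG00000002603.15, chromosome 7, 25687002 to 25705077) encodes TGF-β1, the ligand best known from immune and stromal cells. Its normalized read counts were 2370, 2463, 2445 and 2559 in sgScramble libraries 1 to 4 and 2678, 2486 and 2368 in sgKRT19 libraries 5, 6 and 8. The groups overlapped, and the highest and the lowest library were both sgKRT19. The means were 2459 ± 77.5 (n = 4) and 2511 ± 157 (n = 3), with a log2 fold change of 0.03 (95% interval −0.18 to 0.24, adjusted p = 0.836). Scaled by library size only its sign turned, at −0.19. Of the 10 genes it varied least among sgScramble tumors, with a coefficient of variation of 3.15%.

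*Tgfb3* (ENSMUSG00000021253.7, chromosome 12, 86056745 to 86079041) encodes TGF-β3, a ligand of mesenchymal tissues. It was at 3032, 3285, 3464 and 4402 in sgScramble and at 2957, 2810 and 2478 in sgKRT19 tumors. Every sgKRT19 value was lower than every sgScramble value, and sgScramble library 4 stood highest. The log2 fold change was −0.36 (95% interval −0.66 to −0.05), which did not pass the test over all genes (adjusted p = 0.0691). It passed when scaled by library size only (−0.57, adjusted p = 0.0154), with DESeq2 (0.0429) and without sgScramble library 1, its lowest control (0.0388), and in no other setting. Of its exon bases, 7.6% and 4.82% are shared with the opposite-strand transcripts *Gm48008* and *Gm37804*, and whether the counting used strand is not given in the sources used here.

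*Tgfb2* (ENSMUSG00000039239.14, chromosome 1, 186622792 to 186705989) encodes TGF-β2, the ligand that needs the co-receptor TGFBR3 most. Its values were 101, 142, 198 and 185 in sgScramble and 109, 110 and 93.5 in sgKRT19 tumors. sgScramble library 1 lay among the sgKRT19 tumors and the other controls lay above them. The means were 157 ± 44.1 and 104 ± 9.19, with a log2 fold change of −0.54 (95% interval −1.08 to −0.01, adjusted p = 0.102), and it passed without sgScramble library 1 (adjusted p = 0.0203) and when scaled by library size only (0.0408).

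Per length, measured as normalized reads per kilobase of merged exons, *Tgfb3* had the highest level of the 3 TGF-β ligands and *Tgfb2* the lowest. Merged exons join all annotated transcripts of a gene, with 5042 bases from 5 transcripts for *Tgfb1* and 3383 bases from 1 for *Tgfb3*. A gene read mainly from a shorter transcript would have a higher level than given here. Which transcripts were present was not tested, so the order of genes and the shares hold for this length only. In sgScramble tumors the levels were 1048 ± 177 for *Tgfb3*, 488 ± 15.4 for *Tgfb1* and 27.1 ± 7.61 for *Tgfb2*. In sgKRT19 tumors they were 812 ± 72.5, 498 ± 31.1 and 18.0 ± 1.59. Of the summed level of these ligands, *Tgfb1* made up 33.97%, 32.92%, 31.42% and 27.57% in sgScramble libraries 1 to 4 and 37.3%, 36.73% and 38.55% in sgKRT19 libraries 5, 6 and 8. The shares of the groups did not overlap, with every sgKRT19 tumor above every control, while *Tgfb1* itself gave no detectable difference and *Tgfb3* was lower. The share of *Tgfb3* went from 66.8% ± 2.67 to 61.1% ± 0.89 and that of *Tgfb2* from 1.72% ± 0.39 to 1.35% ± 0.05. Shares of 1 sum are tied to each other, and no test was made on them.

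Over all 10 genes, the order of the levels per length in sgScramble tumors was *Tgfb3*, *Tgfbr1*, *Smad3*, *Inhba*, *Tgfb1*, *Ltbp1*, *Smad7*, *Tgfbr2*, *Tgfbr3* and *Tgfb2*. Among neighbors in this order, the libraries did not overlap only between *Smad3* and *Inhba* and between *Tgfbr2* (353 ± 74.5) and *Tgfbr3* (37.4 ± 13.4). In sgKRT19 tumors the order was *Tgfbr1*, *Tgfb3*, *Smad3*, *Tgfb1*, *Tgfbr2*, *Ltbp1*, *Inhba*, *Smad7*, *Tgfbr3* and *Tgfb2*. There the neighbors overlapped for *Tgfbr1* with *Tgfb3*, *Smad3* with *Tgfb1*, *Tgfbr2* with *Ltbp1* and *Ltbp1* with *Inhba*. *Inhba* stood above *Tgfb1* among controls, at 496 ± 109 reads per kilobase, and below *Ltbp1* in sgKRT19 tumors, at 319 ± 50.5. These orders also rest on the merged exon lengths.

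**Figure D2:**
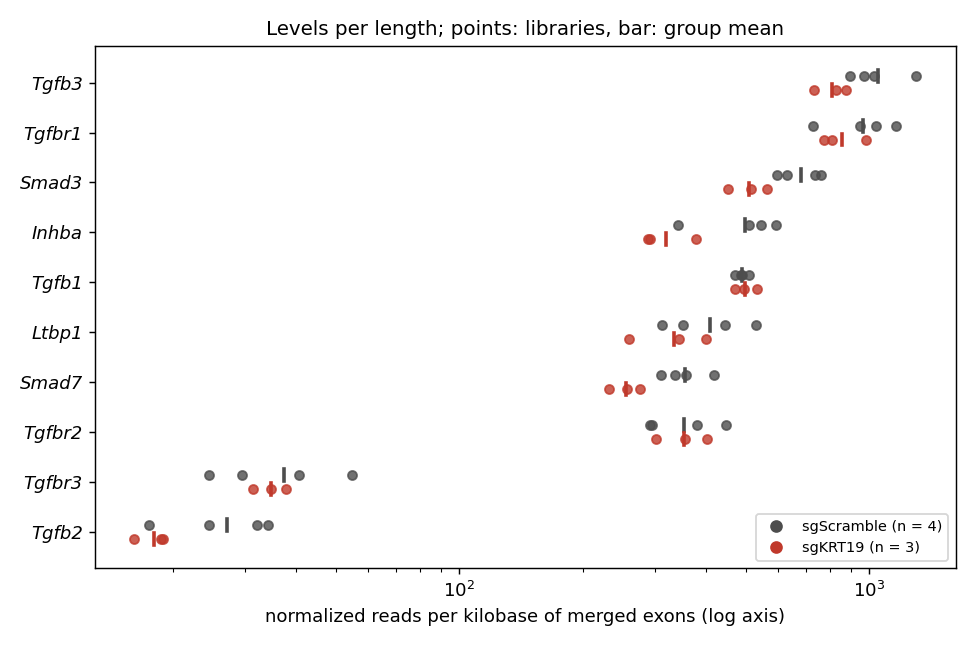
Normalized reads per kilobase of merged exons (log axis) of the 10 genes, with 1 point per library and a bar at the group mean, ordered by the sgScramble mean. *Tgfbr3* and *Tgfb2* lie apart from the other 8 genes in both groups, with means of 18.0 to 37.4 reads per kilobase.

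The activin subunit had the lowest log2 fold change of the 10 genes. *Inhba* (ENSMUSG00000041324.14, chromosome 13, 16011851 to 16031621) encodes the βA chain, which forms activin A as a homodimer and signals through activin receptors to SMAD2 and SMAD3. Normalized read counts were 3254, 3776, 2176 and 3481 in sgScramble and 2413, 1847 and 1860 in sgKRT19 tumors. Of the controls, 3 lay above every sgKRT19 tumor, and sgScramble library 3 lay below sgKRT19 library 5. The mean fell from 3172 ± 697 to 2040 ± 323, with a log2 fold change of −0.62 (SE 0.19, 95% interval −1.03 to −0.20, adjusted p = 0.0284). The call was lost on leaving out sgScramble library 1, 2 or 4 or sgKRT19 library 6 or 8 (adjusted p of 0.0508 to 0.0892) and without a trend (0.0634), and without the overlapping sgScramble library 3 the log2 fold change was −0.79.

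Of the 14 other ligands listed, 10 were tested, 3 fell and 1 rose, with a median log2 fold change of −0.21. The 4 of 10 called stand beside 34.0% of all genes tested, and 16.0% of those were called lower. *Inhbb*, which encodes the other common activin chain, was at 447 ± 72.4 in sgScramble and 505 ± 146 in sgKRT19 tumors (log2 fold change 0.15, 95% interval −0.28 to 0.58, adjusted p = 0.571). *Inha*, whose chain pairs with the β chains to form inhibins, fell from a low 21.7 ± 7.4 to 6.64 ± 5.3 (log2 fold change −1.73, adjusted p = 0.0188). Both were named after their values were seen, as partners of *Inhba*. *Bmp4*, a bone morphogenetic protein that signals through SMAD1 and SMAD5, fell from 591 ± 99.8 to 275 ± 82.3 (−1.12, adjusted p = 0.00267). *Bmp2* fell from 204 ± 36.6 to 140 ± 14.6 (−0.53, adjusted p = 0.0476), and leaving out any library other than sgScramble library 1 ended that call (adjusted p of 0.0677 to 0.132), as did edgeR (0.0504) and a pseudocount of 10 (0.0504). *Gdf15*, a distant stress-induced member of the superfamily, rose from 36.9 ± 13.5 to 93.6 ± 19.6 (1.36, adjusted p = 0.00639).

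The proteins that store and release the ligands were considered next. *Ltbp1* (ENSMUSG00000001870.16, chromosome 17, 75005568 to 75392512) encodes the best known latent TGF-β binding protein, which ties the latent ligand to the matrix. It was at 3746, 5643, 3339 and 4739 in sgScramble and at 4277, 3670 and 2771 in sgKRT19 tumors. The groups overlapped, with the highest value in sgScramble library 2 and the lowest in sgKRT19 library 8. The log2 fold change was −0.28 (95% interval −0.72 to 0.16, adjusted p = 0.287). Its coefficient of variation, 23.7% in sgScramble and 21.2% in sgKRT19 tumors, was the highest of the 10 genes in the latter.

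Of 11 further genes of latency and activation, all tested, 5 fell and 1 rose, with a median log2 fold change of −0.43. Among all genes tested 34.0% were called either way and 16.0% lower. *Itgb8*, the β chain of an integrin that frees TGF-β1 and TGF-β3 from latency, was at 135, 197, 157 and 229 in sgScramble and at 30.1, 45.0 and 27.3 in sgKRT19 tumors. It lay lower in every sgKRT19 tumor than in any control, and fell by 2.36 on the log2 scale (SE 0.25, adjusted p = 0.000167). The binding proteins *Ltbp3*, from 16359 ± 3090 to 8238 ± 1929 (−0.99, adjusted p = 0.00313), and *Ltbp4*, from 5404 ± 852 to 3152 ± 824 (−0.80, adjusted p = 0.00941), fell as well. *Itgb6*, the β chain of the epithelial integrin that activates the same ligands, rose from 619 ± 51.7 to 851 ± 181 (0.44, adjusted p = 0.0455). Carcinoma epithelium markers were 1.81 times as high by their summed means, with *Krt8* and *Krt18* the largest in that sum. Of these markers *Krt8*, *Krt18*, *Krt20* and *Cdh1* rose by 0.55 to 0.97 on the log2 scale, and *Epcam* gave no detectable difference (0.06, adjusted p = 0.943). The call on *Itgb6* was lost without sgScramble library 1, 2 or 4 or sgKRT19 library 5 or 6 (adjusted p of 0.072 to 0.165), when scaled by library size only (0.217), without a trend (0.0755) and without a filter on low values (0.0558). *Thbs1* (−0.70, adjusted p = 0.0111), a matrix protein that can activate the latent ligand, and *Itgav* (−0.45, adjusted p = 0.0217), the α chain that pairs with both integrin chains, were the remaining genes that fell, and are named after their values were seen.

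None of the 3 receptors passed the test. *Tgfbr1* (ENSMUSG00000007613.15, chromosome 4, 47353222 to 47414931) encodes the type I receptor kinase that phosphorylates SMAD2 and SMAD3. Its values were 6187, 7576, 4746 and 6763 in sgScramble and 6401, 5057 and 5304 in sgKRT19 tumors, overlapping, with the lowest and the highest library both sgScramble. The log2 fold change was −0.16 (95% interval −0.52 to 0.20, adjusted p = 0.451).

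*Tgfbr2* (ENSMUSG00000032440.13, chromosome 9, 116084293 to 116175360) encodes the type II receptor, which binds the ligand and activates the type I receptor. It was at 2412, 2387, 3107 and 3657 in sgScramble and at 2907, 3297 and 2472 in sgKRT19 tumors. The sgKRT19 values lay inside the range of the controls, and the means were 2891 ± 610 and 2892 ± 412. The log2 fold change was 0.01 (95% interval −0.36 to 0.39, adjusted p = 0.955), and its sign turned in 6 of the 17 other settings.

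*Tgfbr3* (ENSMUSG00000029287.14, chromosome 5, 107106570 to 107289629) encodes betaglycan, a co-receptor that presents TGF-β2 and also binds inhibin. It was at 161, 194, 267 and 359 in sgScramble and at 247, 206 and 228 in sgKRT19 tumors. The controls spread 2.23-fold around the sgKRT19 values, with libraries 3 and 4 the highest, which also held the highest fibroblast marker sums. The log2 fold change was −0.04 (95% interval −0.60 to 0.51, adjusted p = 0.904), the widest interval among the 10 genes, and its sign turned without sgScramble library 4, at 0.16.

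Of 10 other receptors and co-receptors, 9 were tested, with 1 lower, 1 higher and a median log2 fold change of −0.10, where 34.0% of all genes tested were called. *Acvr1*, a type I receptor for activin and bone morphogenetic proteins, fell from 2249 ± 210 to 1461 ± 238 (−0.63, adjusted p = 0.00591). *Eng*, the co-receptor endoglin of endothelial cells, rose from 818 ± 94 to 1115 ± 100 (0.45, adjusted p = 0.0207). Endothelial markers were 1.46 times as high by their summed means, and the call on *Eng* was lost without sgScramble library 2 (adjusted p = 0.0509), without sgKRT19 library 8 (0.0771) and when scaled by library size only (0.243).

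**Figure D3:**
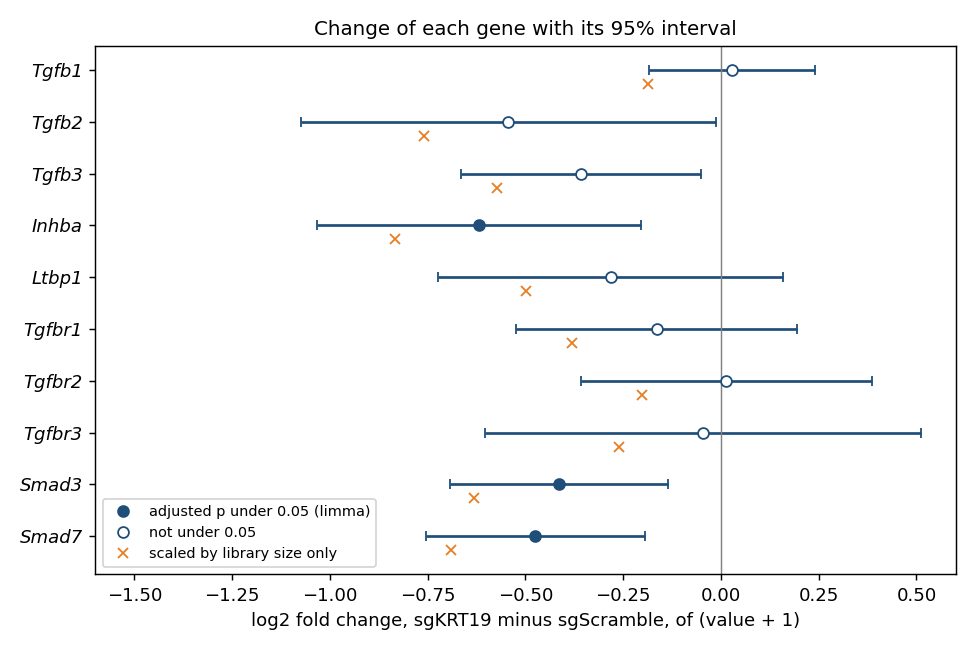
Log2 fold change of log2(value + 1), sgKRT19 minus sgScramble, of the 10 genes with 95% intervals (horizontal axis). Filled circles passed an adjusted p under 0.05 in limma (*Inhba*, *Smad3*, *Smad7*), open circles did not, and crosses give the same change scaled by library size only, which lies lower for each gene.

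The SMADs among the 10 genes both fell. *Smad3* (ENSMUSG00000032402.12, chromosome 9, 63646767 to 63757994) encodes the receptor-activated SMAD that binds DNA directly. Its values were 3302, 4215, 3496 and 4074 in sgScramble and 2507, 3124 and 2845 in sgKRT19 tumors. Every sgKRT19 library was lower than every control, with sgScramble library 1 and sgKRT19 library 6 the closest. The mean fell from 3772 ± 441 to 2826 ± 309, with a log2 fold change of −0.41 (SE 0.13, 95% interval −0.69 to −0.14, adjusted p = 0.0286). The call was lost without sgScramble library 2 or 4 or sgKRT19 library 5 or 8 (adjusted p of 0.0673 to 0.101) and without a trend (0.0601).

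*Smad7* (ENSMUSG00000025880.11, chromosome 18) encodes the inhibitory SMAD that blocks the type I receptor and recruits SMURF ligases to it. It was at 1610, 1889, 1405 and 1519 in sgScramble and at 1045, 1160 and 1250 in sgKRT19 tumors. The groups did not overlap, and sgKRT19 library 8 was the closest to the controls. The mean fell from 1606 ± 207 to 1152 ± 103, with a log2 fold change of −0.47 (SE 0.13, 95% interval −0.75 to −0.19, adjusted p = 0.017). Of the 10 genes its call held in the most settings, 14 of 17, and was lost without sgScramble library 2 (adjusted p = 0.0518), without sgKRT19 library 5 (0.0617) and in a test for a change above 1.5-fold.

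Of the 6 other SMADs, 5 were tested, with 1 lower, 1 higher and a median log2 fold change of −0.18, where 34.0% of all genes tested were called. The partners of SMAD3 did not pass the test. *Smad2* was at 1935 ± 157 in sgScramble and 1749 ± 118 in sgKRT19 tumors (−0.14, 95% interval −0.38 to 0.10, adjusted p = 0.318). *Smad4*, the common mediator, was at 2922 ± 158 and 2580 ± 96.0 (−0.18, 95% interval −0.39 to 0.04, adjusted p = 0.172). Every sgKRT19 value of *Smad4* (2472 to 2654) was lower than every sgScramble value (2705 to 3048), as for 19.3% of all genes tested. Both genes passed lower when scaled by library size only. Of the SMADs of the bone morphogenetic protein branch, *Smad1* rose from 1877 ± 84.1 to 2372 ± 149 (0.34, adjusted p = 0.0245) and *Smad5* fell from 2976 ± 194 to 2391 ± 139 (−0.31, adjusted p = 0.036). Leaving out sgScramble library 2 or 3 or sgKRT19 library 8 ended both calls, sgKRT19 library 5 that of *Smad1* and sgScramble library 4 or sgKRT19 library 6 that of *Smad5* (adjusted p of 0.051 to 0.112). Scaled by library size only *Smad1* was no longer called (0.12, adjusted p = 0.37), and *Smad5* was not called without a trend (adjusted p = 0.0673) or without a filter on low values (0.0626).

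Of the antagonists and feedback regulators, 12 of 13 were tested, of which 5 fell and 1 rose, with a median log2 fold change of −0.34. Among all genes tested 34.0% were called either way and 16.0% lower. *Fst* encodes follistatin, which binds and neutralizes activin, and was at 930, 833, 929 and 866 in sgScramble and at 2474, 2401 and 3340 in sgKRT19 tumors. Every sgKRT19 tumor was far above every control, and the log2 fold change was 1.61 (SE 0.13, adjusted p = 4.68e-05). *Inhba*, which encodes the activin chain, fell in the same tumors. *Fstl3*, a follistatin-like antagonist of activin, fell from 527 ± 55.6 to 179 ± 76.9 (−1.63, adjusted p = 0.000993), but 47.3% of its exon bases are shared with *Prss57* on the opposite strand, which was at a mean of 437 and 162, so that their reads may not be separate. *Grem1*, which encodes gremlin, an antagonist of bone morphogenetic proteins, fell from 631 ± 137 to 164 ± 54.8 (−1.96, adjusted p = 0.000332). *Skil*, a nuclear co-repressor of SMADs that the pathway induces, fell from 5537 ± 720 to 3295 ± 477 (−0.75, adjusted p = 0.00311). The calls on *Fst*, *Fstl3* and *Grem1* held in all 17 other settings. Among genes named after their values were seen, the ubiquitin ligases *Smurf1* (−0.39, adjusted p = 0.0468) and *Smurf2* (−0.61, adjusted p = 0.00408), which act with SMAD7, fell. *Nog*, the antagonist noggin, also named after its values were seen, was below the filter and not tested. It was at 0, 0, 0.913 and 0 in sgScramble and 28.9, 7.0 and 16.8 in sgKRT19 tumors. Its sgKRT19 mean of 17.6 was 6.23 times the mean sgScramble floor of 2.82, set at 3 reads per library, and library 6 lay nearest that floor.

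Genes known as targets of TGF-β moved in both directions. Of 12 tested, 3 fell and 2 rose, with a median log2 fold change of −0.12. The 5 of 12 called stand beside 34.0% of all genes tested. *Ccn2*, a matricellular growth factor, was at 23688 ± 2671 and 27424 ± 6998 (0.18, 95% interval −0.23 to 0.60, adjusted p = 0.463), and 23.2% of its exon bases are shared with the opposite-strand transcript *Gm15270*. Scaled by library size only, the sign of *Ccn2* turned. *Tgfbi*, a matrix protein named for its induction by TGF-β, rose from 3264 ± 527 to 4797 ± 708 (0.56, adjusted p = 0.0171), a call lost without sgScramble library 2 or sgKRT19 library 5 or 6 (adjusted p of 0.0517 to 0.0649) and when scaled by library size only. *Acta2*, the smooth muscle actin of activated fibroblasts and vessel walls, rose from 3212 ± 416 to 5129 ± 1291 (0.65, adjusted p = 0.0165), and without sgKRT19 library 5 the adjusted p was 0.0595. *Fn1*, the matrix protein fibronectin, fell from 82510 ± 25293 to 33423 ± 7513 (−1.28, adjusted p = 0.00424).

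*Snai1* and *Snai2*, the listed transcription factors of epithelial-mesenchymal change that the pathway induces, both fell. Other such factors were not in the lists. *Snai1* was at 133, 127, 196 and 174 in sgScramble and 85.5, 87.0 and 94.5 in sgKRT19 tumors (−0.80, adjusted p = 0.0128), and *Snai2* at 183 ± 8.71 and 119 ± 29.1 (−0.65, adjusted p = 0.0223). The groups did not overlap for either gene. The call on *Snai2* was lost without sgScramble library 2 or 4 or sgKRT19 library 5 or 8 (adjusted p of 0.0517 to 0.0766). Of 3 targets of bone morphogenetic proteins, *Id1*, an inhibitor of differentiation factors, rose from 1096 ± 239 to 1896 ± 335 (0.81, adjusted p = 0.0113) and the others did not pass, with a median of 0.51. This 1 call of 3 stands beside 34.0% of all genes tested.

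**Figure D4:**
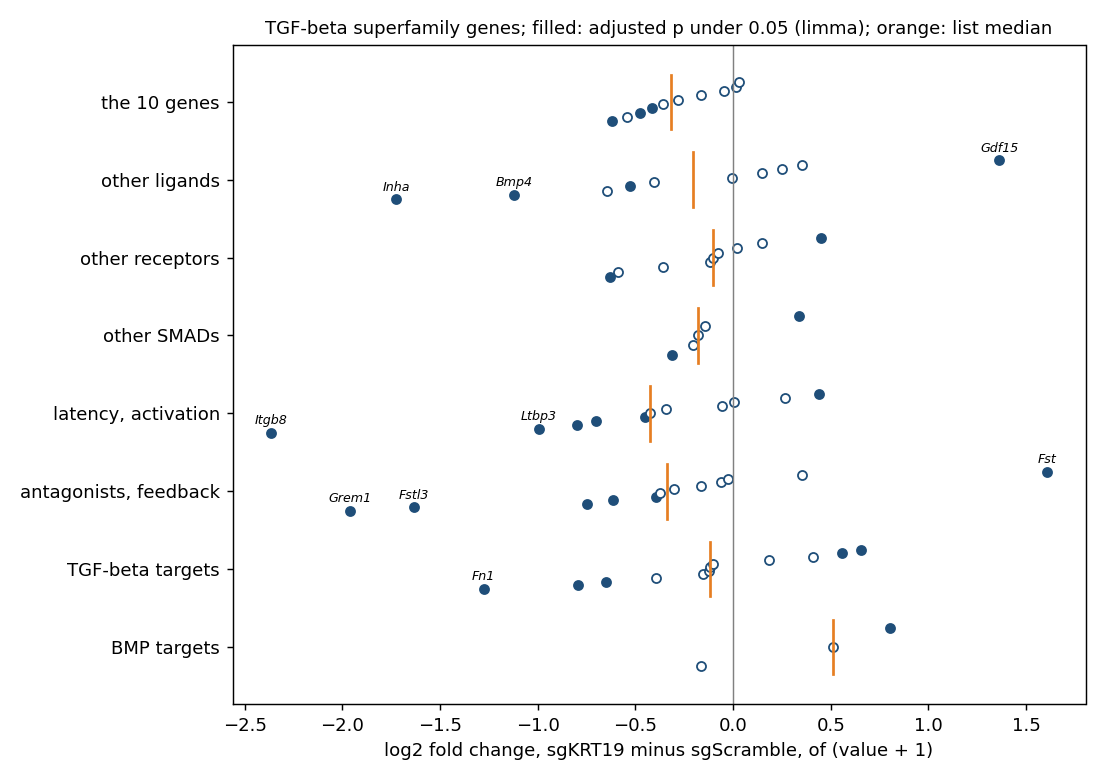
Log2 fold change (sgKRT19 minus sgScramble) of each tested gene, 1 point per gene, by list, with filled points for an adjusted p under 0.05 in limma and the list median as an orange line; called genes beyond 0.9 either way are named. The 10 genes lie between −0.62 and 0.03, while *Itgb8*, *Grem1* and *Fstl3* lie at −1.63 or lower and *Fst* at 1.61.

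The 10 genes did not all peak in the same control tumor, and some of them shared both their highest and their lowest library. In sgScramble tumors *Tgfbr1*, *Inhba*, *Smad3*, *Smad7* and *Ltbp1* were highest in library 2, while *Tgfb1*, *Tgfb3*, *Tgfbr2* and *Tgfbr3* were highest in library 4 and *Tgfb2* in library 3. *Inhba*, *Smad7*, *Tgfbr1* and *Ltbp1* were lowest in library 3, which had the muscle markers, and 5 genes were lowest in library 1. The fibroblast marker sum of library 4 was the highest of all tumors, that of library 1 the lowest of the controls. Within sgKRT19 tumors 6 genes were highest in library 5, 3 in library 6 and 1, *Smad7*, in library 8. The spread within the sgScramble group, from the lowest to the highest library, was 1.08-fold for *Tgfb1* and 1.28-fold for *Smad3*, and reached 1.96-fold for *Tgfb2* and 2.23-fold for *Tgfbr3*.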

How the data were processed

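RNA-seq libraries of 7 s/c tumors were analyzed. The authors deposited 1 table of 38026 genes whose values are a signal, the reads per gene divided by a size factor for each library; the build mm10 is named in the submitters' processing notes, and the aligner, counter and annotation are not given in the sources used here. The labels name polyA RNA, whereas the methods of the study name a stranded total RNA kit. Each value was a whole multiple of 1 read within a tolerance of 0.1 (100% of values in each library). Every column of values belonged to a sample. Of the identifiers, 37095 (97.55%) have the same version in GENCODE M21.

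Genes that reached a value of 10 in 3 libraries or more entered limma 3.58.1 in R 4.3.3 (lmFit, then eBayes with a trend) on log2(value + 1), a scale that understates changes of low genes, with the group as the only term and Benjamini-Hochberg adjustment over all 21322 genes tested, threshold 0.05. The design named limma for normalized values and edgeR for counts, so edgeR 4.0.16 and DESeq2 1.42.0 on the recovered reads, which called 7186 and 7971 genes where limma called 7240, were alternatives, beside other scalings, filters and pseudocounts and leaving out each library. The test was tried on simulated data. A floor of 3 reads (values of 2.74 to 3.47) covers counting error only. Libraries of a group differed by a chi-square of 18.76 to 81.01 per degree of freedom, which is more than counting error alone gives. None was therefore the same library sequenced again. These values cannot show whether the libraries came from different tumors. The labels call each library a tumor, and do not say that each came from its own mouse or batch, so p-values measure the spread between these samples.

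The 10 genes and all lists were chosen with earlier results of these data known. Named were the 10 genes, *Krt19*, *Smad2*, *Smad4*, *Ccn2* and *Tgfbi*, and from each other list the up to 3 highest and up to 3 lowest log2 fold changes among called genes with a mean of at least 1 CPM; 1 gene of the target list is not reported here and was left out of its counts. Promoter sequences are from RefSeq, and positions and exons from GENCODE.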

Additional observations from a re-analysis of the deposited data

Results flagged for a closer look

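Among the named genes and the marker sums, 44 measures were searched in the 4 sgScramble tumors for a library far from the others, and 1 (2.27%) was found, where chance flags about 1 group in 20. The summed skeletal muscle markers were 85.5, 95.8, 2112 and 104.8 in sgScramble libraries 1 to 4, so that the gap of library 3 to the nearest control was 0.99 of the whole range. In that library *Inhba*, *Smad7*, *Tgfbr1* and *Ltbp1* were also the lowest of the controls. The part of muscle RNA in these values was not tested. None of the 10 TGF-β genes had such a library.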

How the results depend on the processing

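Of the values of single genes under 17 other settings, 501 kept direction and side of the threshold, 75 no longer passed, 7 newly passed and 12 changed sign. No paired analysis was possible because the groups share no replicate number. Scaled by library size only, 5 of the 10 genes and 2 of 3 targets of bone morphogenetic proteins were called, beside 7904 of 21306 genes tested. The log2 fold changes turned for *Tgfb1* (−0.188), *Tgfbr2* (−0.202) and *Ccn2* (−0.0322). *Tgfbr2* also turned with TMM scaling (−0.00026) and DESeq2 (−0.0100). Without a trend 1 of the 10 genes and 1 other SMAD were called (6188 genes in all), and with no filter 1 other SMAD (7166 genes in all). The limma test for a change above 1.5-fold called 1336 genes in all, 1 of latency and activation, 3 antagonists, and 0 of the 10 genes, other ligands, other receptors, other SMADs, TGF-β targets and targets of bone morphogenetic proteins (unadjusted p under 0.05 for 0, 3, 0, 0, 1 and 0 of them). Leaving out 1 library gave 0 to 4 calls among the 10 genes (0 without sgScramble library 2, 1 without sgScramble library 4 or sgKRT19 library 5 or 8), 2 to 4 among other ligands, 1 to 4 among other receptors, 0 to 2 among other SMADs (0 without sgScramble library 2 or 3 or sgKRT19 library 8, each with 2 at an unadjusted p under 0.05), 4 to 6 in latency, 5 to 7 among antagonists, 2 to 5 among targets and 1 to 2 among targets of bone morphogenetic proteins, and 4861 to 7714 over all genes. It moved *Tgfb1* between −0.0188 and 0.06999, *Tgfbr2* between −0.0852 and 0.135 and *Tgfbr3* between −0.224 and 0.161. Apart from what the construction of a setting shows, such as fewer samples or a larger change asked for, the cause was not tested.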
